A study of Danio rerio with 3 samples.

Results

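The glutathione and thioredoxin antioxidant genes of the zebrafish (Danio rerio) intestine are described here across 3 diets. The members were chosen by gene symbol. They are the glutathione transferases with symbols that begin with gst, glutathione peroxidases (gpx), peroxiredoxins (prdx), thioredoxin reductases (txnrd) and superoxide dismutases (sod). The genes cat, gclc, gclm, gss, gsr, nqo1, srxn1, txn, txn2, nfe2l2a, nfe2l2b, keap1a and keap1b were added by name. This gave 53 of 32519 gene identifiers, under 52 symbols, since gstk4 names 2 identifiers. Microsomal glutathione transferases (mgst) do not match these symbols, and the class sums and ranks below leave them out. The name of the set covers most of its members, but superoxide dismutases, catalase and the quinone reductase nqo1 use neither glutathione nor thioredoxin, and nfe2l2a, nfe2l2b, keap1a and keap1b encode regulators.

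Glutathione is a small thiol that cells build from glutamate, cysteine and glycine. Glutathione peroxidases use it to reduce peroxides, glutathione transferases join it to reactive compounds from food and metabolism, and glutathione reductase restores it. Thioredoxin does similar work on proteins and feeds electrons to the peroxiredoxins. NRF2, a transcription factor that KEAP1 marks for degradation in unstressed cells, drives many of these genes, and the intestinal epithelium meets dietary oxidants and plant compounds first.

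Poly(A) RNA was sequenced from the intestine of healthy adult fish aged 6 to 9 months, in 1 library per diet. The control group received Tetramin, a commercial feed. In the 2 other groups 50% of the granule was fruit pulp of Cavendish banana or of Fe'i banana, an orange-fleshed banana rich in carotenoids, and the rest was Tetramin. All groups were fed 4% of body weight a day for 8 weeks and fasted for 24 hours before sampling at day 56. The labels do not give the strain, the sex, how many fish went into a library or which stretch of intestine was taken.

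Levels are FPKM (fragments mapped to a gene, scaled to its length and to the library's total), a per-length scale, divided by a scaling factor per library. A value after ± is the scaled distance from the FPKM to the upper bound of its deposited 95% interval. Where 3 values follow each other, they stand for the control, the Cavendish and the Fe'i library, in that order. The interval covers counting and read assignment within a library, not differences between fish. Without replicate libraries no difference could be tested, so none carries a p-value. The word called is used for a gene whose log2(scaled FPKM + 1) differed by at least 1, that is 2-fold, with at least 1 FPKM in the higher library and no overlap of intervals. Of the 53 members, 46 reached 1 FPKM in at least 1 library; gpx7 and gpx8 did so in 1 library each, the Cavendish and the Fe'i library.

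Facts of the whole libraries bear on all values below. Effective fragments, the squared ratio of an FPKM to its counting SD, had a median of 833 (control), 797 (Cavendish) and 549 (Fe'i) over measured members, and of 144, 177 and 113 over all measured genes. All 16 enterocyte markers found (fabp2, vil1 and others) stood at 10.7 FPKM or more in every library, as the label intestine requires. Their summed level was 44520 FPKM on control feed, 28030 with Cavendish and 27339 with Fe'i. Markers of other organs were present too. The 25 liver markers found summed to 7250, 15308 and 30438 FPKM, the 22 exocrine pancreas markers to 55805, 156874 and 52763, the 18 smooth muscle and fibroblast markers to 462, 1435 and 558, and the 15 erythrocyte genes to 196, 451 and 682. No liver or pancreas marker was at 0 in any library. In bulk RNA, fewer cells of a type and less RNA per cell cannot be told apart.

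Few members differed 2-fold between diets, and of the 7 that did in any comparison 4 were glutathione transferases. That class makes up 16 of the 46 measured members. Against the control, the Cavendish library had 4 members called higher (gstp2, gstm.2, gstt1a and gpx1b) and 0 lower, which is 8.7% of the 46 measured members, where 7.33% of all 14067 measured genes were called, 5.68% higher and 1.65% lower. Fe'i feeding had 5 members called higher (gstp2, gstt1a, sod3a, gpx8 and gstm.2) and 0 lower, or 10.9% of the measured members, against 6.72% of all genes called, 4.93% higher and 1.79% lower. Between the banana diets, 2 members were called higher with Fe'i (gstt1a and gstp2) and 2 lower (gpx1b and gstt2), 4.35% each, against 4.22% and 4.5% of all genes, or 8.72% in either direction. Against the control, the shares of members called higher lay above those of all genes, on 4 and 5 members, and this was not tested. Between the banana diets the shares lay near those of all genes. Both comparisons with the control use the same control library.

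The split between higher and lower depends on the scaling. For the Cavendish library against the control, TPM (each library set to the same sum) gave 3 members higher and 1 lower (keap1a), and all genes went from 799 higher and 232 lower to 517 and 452. TPM moved the median log2 ratio of all genes from 0.02 to -0.19 in that comparison, and from 0.02 to -0.10 in the Fe'i one. For the Fe'i against the Cavendish library, TPM gave 2 members higher and 1 lower, and the deposited FPKM gave 1 higher and 2 lower.

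**Figure D1:**
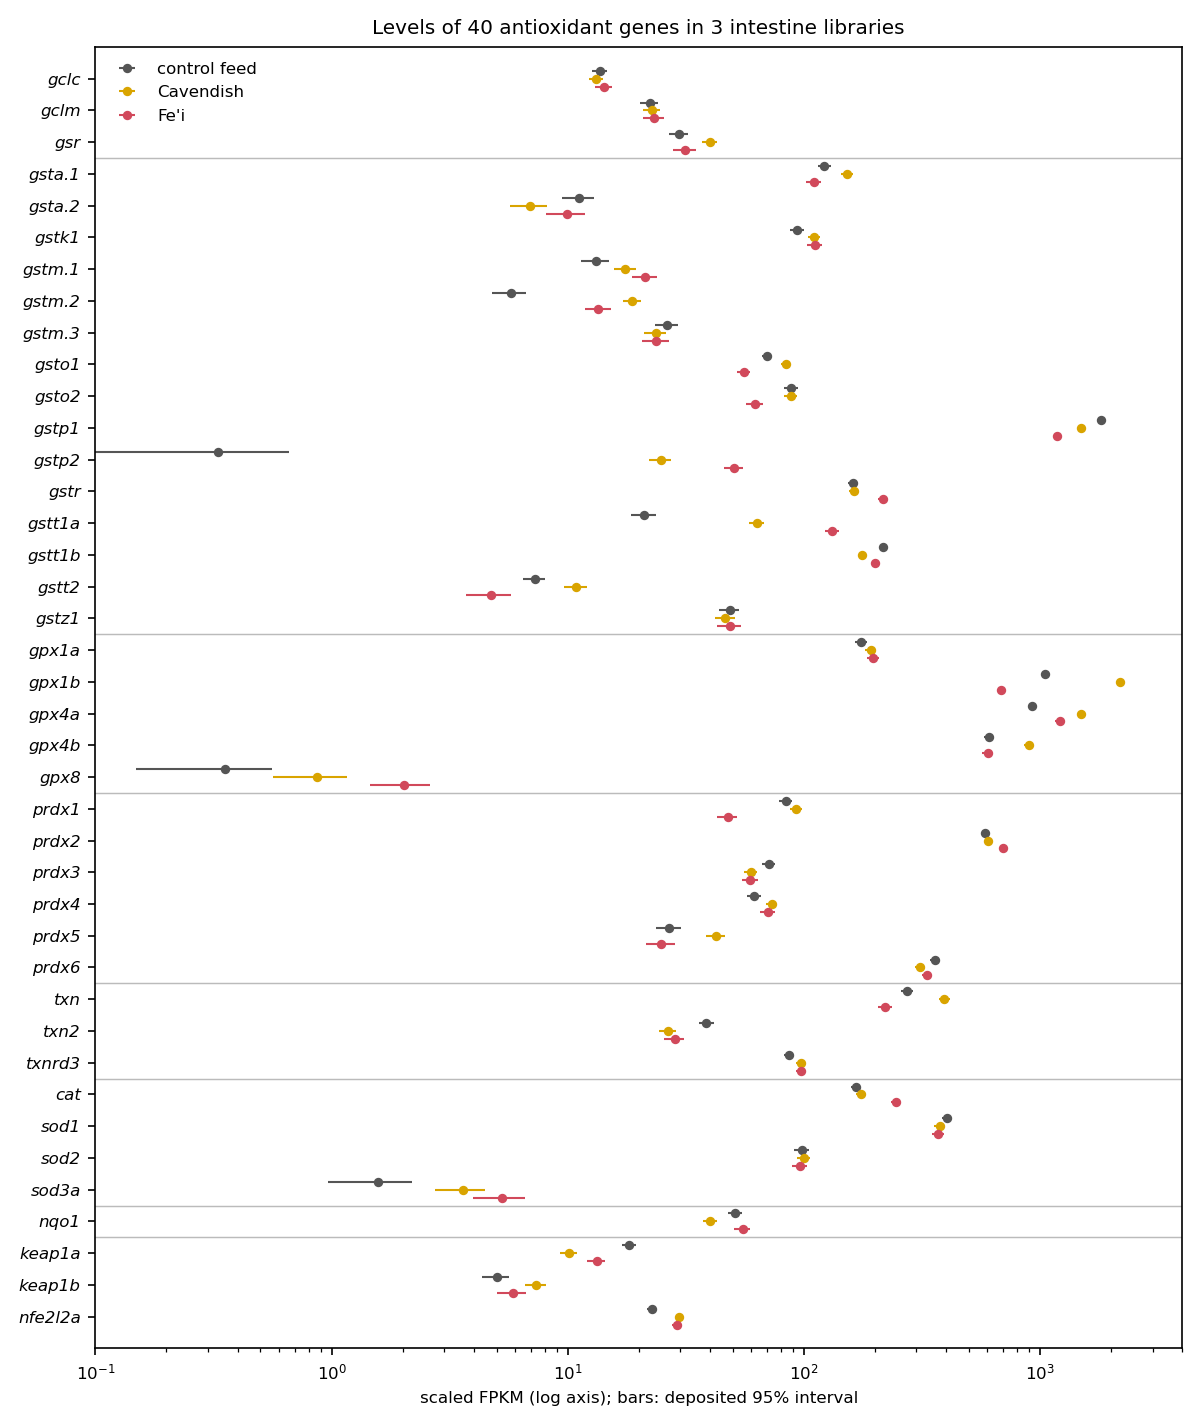
Scaled FPKM (log axis) of the 40 members at 5 FPKM or more, or called, on control feed, Cavendish and Fe'i; bars are deposited 95% intervals, the control bar of gstp2 reaches 0, and lines part the classes. Of the 39 members at 5 FPKM or more, 25 range less than 1.5-fold over the 3 libraries. The called gstp2, gstt1a, gstm.2, gpx8 and sod3a stand lowest in the control.

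Together the 53 members made up 0.892% of all scaled FPKM on control feed, 0.917% with Cavendish and 0.760% with Fe'i. Mitochondrially encoded genes took 12.0%, 10.9% and 17.4% of the same totals, and their part in the members' share was not tested. A few genes carried most of this: the 5 highest members held 63.2%, 68.2% and 59.0% of the members' summed level. The same 5 genes, gstp1, gpx1b, gpx4a, gpx4b and prdx2, took ranks 1 to 5 in each library, in differing order. gstp1 came first in the control, gpx1b in the Cavendish and gpx4a in the Fe'i library. In the Fe'i library the interval of gpx4a (1216 ± 54.7 FPKM) overlaps that of gstp1 (1186 ± 23.0).

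The class sums differed most for the peroxidases. Glutathione peroxidases summed to 2772 ± 54.5 FPKM on control feed, 4774 ± 80.6 with Cavendish and 2705 ± 65.9 with Fe'i, 1.72-fold the control in the Cavendish library (1.43-fold with TPM). Glutathione transferases summed to 2696 ± 29.9, 2479 ± 27.3 and 2252 ± 31.9, and without gstp1 to 889 ± 17.4, 988 ± 17.9 and 1065 ± 22.2. The transferase sum was thus lower on both banana diets through gstp1. The summed level of the rest was higher, except that with TPM it was 0.922-fold the control in the Cavendish library. Single genes went both ways. Of the 16 measured transferases 9 lay above and 7 below the control with Cavendish, and 8 above and 8 below with Fe'i. In the summed rest, gstt1a stood at 21.2, 63.2 and 132 FPKM and gstp2 at 0.330, 24.8 and 50.8. Peroxiredoxins summed to 1189 ± 22.6, 1184 ± 20.9 and 1236 ± 24.6, and superoxide dismutases with catalase to 669.9 ± 23.4, 655 ± 21.9 and 718 ± 24.8. In the Cavendish library these 2 sums were 0.996-fold and 0.978-fold the control, and 0.827-fold and 0.812-fold with TPM. The thioredoxin genes summed to 405 ± 17.3, 521 ± 21.6 and 351 ± 16.5, highest in the Cavendish library. There the sum was 1.29-fold the control, and 1.07-fold with TPM.

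**Figure D2:**
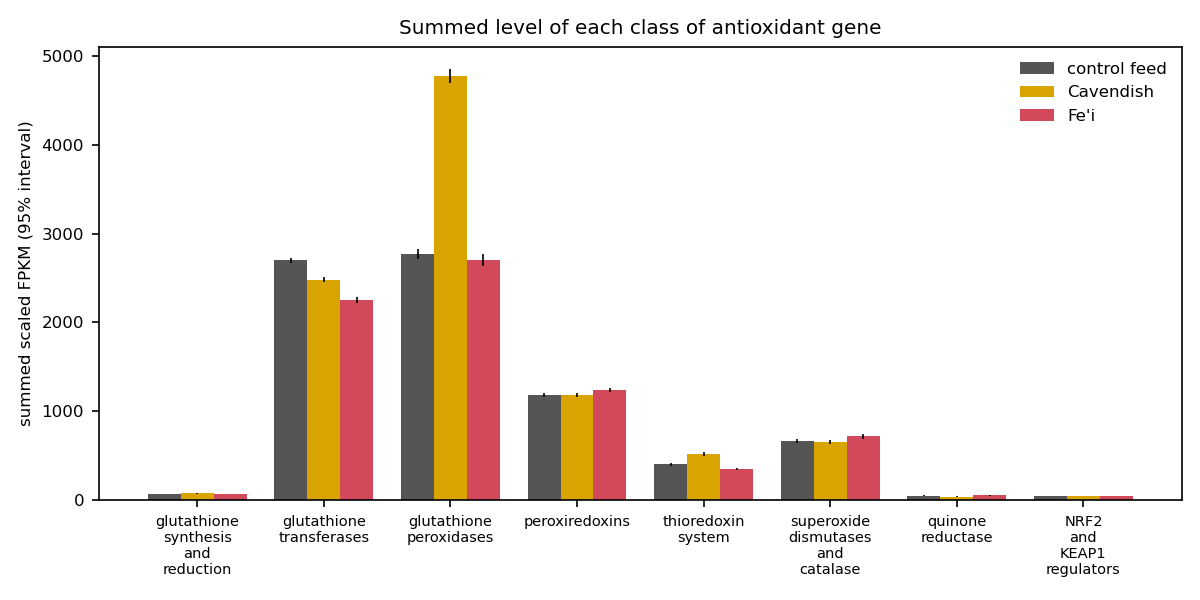
Summed scaled FPKM of all members of each class in the 3 libraries, with bars for the combined 95% intervals. The peroxidase sum of the Cavendish library, 4774, stands far above the 2772 and 2705 of the other libraries, while the peroxiredoxin sums lie between 1184 and 1236.

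With the scaling used here, the genes that make glutathione held nearly the same level on all 3 diets. gclc, the catalytic subunit of the rate-limiting enzyme glutamate-cysteine ligase, was at 13.7 ± 1.00 FPKM on control feed, 13.2 ± 0.915 with Cavendish and 14.2 ± 1.198 with Fe'i. Its modifier subunit gclm was at 22.3 ± 1.98, 22.7 ± 1.89 and 23.2 ± 2.31, and gss, which adds the final glycine, at 2.54 ± 0.559, 2.18 ± 0.513 and 2.06 ± 0.588. The intervals of each of these genes overlap among all libraries. With TPM the log2 ratio of gclm for Cavendish over control was -0.23, where the median of all genes was -0.19. That of gclc reached -0.30 among the alternative settings. gsr, glutathione reductase, was at 29.6 ± 2.72, 39.9 ± 3.02 and 31.4 ± 3.54, higher in the Cavendish library (log2 ratio 0.42, counting SE 0.08) and short of 2-fold.

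Of 16 measured glutathione transferase members, 3 were called higher in each banana library than in the control and 0 lower. Of all measured genes 5.68% were called higher and 1.65% lower with Cavendish, and 4.93% and 1.79% with Fe'i. The pi-class pair lies on chromosome 14, with gstp2 (ENSDARG00000103019, 3495542 to 3503708 in GRCz11) 3617 bases from gstp1 (ENSDARG00000104068, 3507326 to 3514055). gstp1, the most abundant transferase, was at 1808 ± 24.3 FPKM on control feed, 1491 ± 20.6 with Cavendish and 1186 ± 23.0 with Fe'i. gstp2 was at 0.330 ± 0.330, 24.8 ± 2.69 and 50.8 ± 4.79. The intervals of both genes are apart in all 3 libraries, with the order of the libraries opposite in the neighbours. The log2 ratio of gstp2 to the control was 4.28 (counting SE 0.19) with Cavendish and 5.28 (0.19) with Fe'i. Between the banana diets it was 1.01, a call lost with the deposited FPKM (0.998) or a pseudocount of 5 (0.90). The control value rests on 4.00 effective fragments, so these ratios lean on the added 1 FPKM. gstp2 made up 0.0183%, 1.63% and 4.10% of the pair, and gstp1 remained the main transcript in every library. Such tandem copies can share reads, and the labels do not say how the authors' counting split them.

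The theta-class genes differed unequally between diets. gstt1a (ENSDARG00000042428, chromosome 8, 30787111 to 30791266) was at 21.2 ± 2.51 FPKM on control feed, 63.2 ± 4.60 with Cavendish and 132 ± 8.72 with Fe'i. With 1 FPKM added to each level, these were 2.90-fold and 6.00-fold the control. Its paralog gstt1b, on chromosome 21, was at 217 ± 6.42, 177 ± 5.39 and 200.8 ± 7.14. The share of gstt1b in the pair was 91.1%, 73.7% and 60.4%, so the pair's higher total in the Fe'i library came from gstt1a. gstt2 was at 7.26 ± 0.759, 10.8 ± 1.22 and 4.75 ± 1.03, highest in the Cavendish and lowest in the Fe'i library, with intervals apart. Its log2 ratio of Fe'i to Cavendish was -1.04, a call lost with TPM (-0.93) or a pseudocount of 5 (-0.70). Its locus overlaps that of chek2, and the labels do not say whether the counting used strand.

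The mu-class genes form a tandem row on chromosome 8. gstm.2 (ENSDARG00000029473, 25299069 to 25301802) was at 5.74 ± 0.950 FPKM on control feed, 18.8 ± 1.62 with Cavendish and 13.5 ± 1.72 with Fe'i. With 1 FPKM added to each level, these were 2.93-fold and 2.15-fold the control. The Fe'i difference was no longer called with the deposited FPKM (log2 ratio 0.99), with TPM (0.98) or with a pseudocount of 5 (0.79). gstm.1, 1140 bases away, was at 13.2 ± 1.80, 17.6 ± 1.91 and 21.3 ± 2.64, and gstm.3, 369 bases away on the other side, at 26.4 ± 2.90, 23.6 ± 2.56 and 23.7 ± 3.13. The gstm.1 intervals of both banana libraries lie above the control below 2-fold, and those of gstm.3 overlap in all libraries. gstm.3 held, of its summed level with gstm.2, 82.1%, 55.7% and 63.7%.

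Each of the other measured transferases ranged less than 2-fold over the 3 libraries. The alpha-class gsta.1 was at 122 ± 7.91, 153 ± 8.93 and 111 ± 8.14 FPKM in the 3 libraries, and gsta.2 at 11.2 ± 1.71, 6.92 ± 1.24 and 9.98 ± 1.85. Within this pair the Cavendish library held the highest gsta.1 and the lowest gsta.2 value. The omega-class gsto1 was at 69.9 ± 3.40, 83.8 ± 3.46 and 55.9 ± 3.55 and gsto2 at 88.2 ± 6.05, 87.9 ± 5.75 and 62.1 ± 5.36, both lowest in the Fe'i library with intervals apart from the control. gstr, of the rho class found in fish, was at 162 ± 8.03, 163 ± 7.84 and 217 ± 10.8, highest in the Fe'i library. The kappa-class gstk1 was at 94.1 ± 6.38, 110.3 ± 6.47 and 112 ± 7.95. gstz1, which also serves tyrosine breakdown, was at 48.6 ± 4.79, 46.5 ± 4.47 and 48.6 ± 5.51, with overlapping intervals. The scarce gstcd was at 1.35 ± 0.428, 1.28 ± 0.392 and 2.27 ± 0.633, highest in the Fe'i library, also with overlapping intervals.

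**Figure D3:**
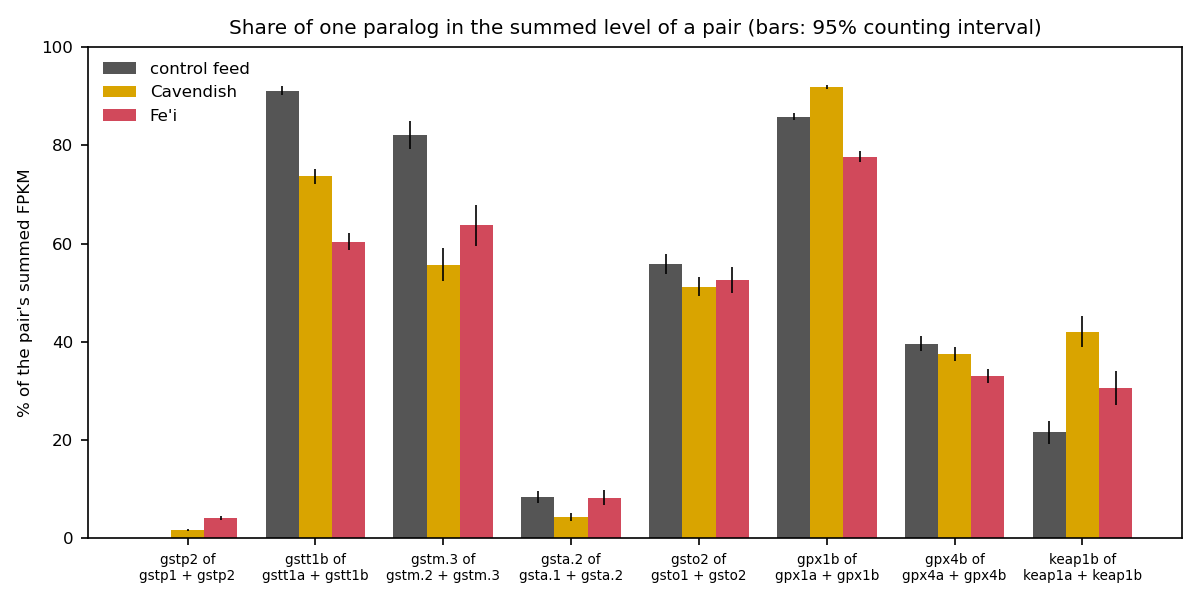
Share of 1 paralog in the summed scaled FPKM of a pair, in percent, in the 3 libraries, with 95% counting intervals. gstt1b lies below its control share of 91.1% on both banana diets, gpx1b ranges from 77.7% to 91.9%, and gsto2 stays between 51.2% and 55.8%.

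Among glutathione peroxidases, gpx1b separated the diets most. gpx1b (ENSDARG00000006207, chromosome 6, 42338309 to 42341219), a zebrafish counterpart of the cytosolic enzyme GPX1, was at 1056 ± 19.1 FPKM on control feed, 2185 ± 25.4 with Cavendish and 687 ± 17.7 with Fe'i. The intervals of all libraries are far apart, with the Cavendish library above and the Fe'i library below the control. The log2 ratio was 1.05 (counting SE 0.02) for Cavendish over control, -0.62 (0.02) for Fe'i over control and -1.67 for Fe'i over Cavendish. The first of these was no longer called with the deposited FPKM (0.92), with TPM (0.78) or with TPM without pancreas and mitochondrially encoded genes (0.91). Its paralog gpx1a was at 175 ± 10.1, 193 ± 10.5 and 197 ± 11.9, and its ratio of Cavendish to control changed sign with TPM.

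gpx4a and gpx4b, zebrafish counterparts of GPX4, which reduces lipid peroxides in membranes, were also highest in the Cavendish library. gpx4a was at 929 ± 41.7 FPKM on control feed, 1496 ± 64.1 with Cavendish and 1216 ± 54.7 with Fe'i, and gpx4b at 610.3 ± 27.8, 897 ± 40.4 and 601 ± 29.7. For gpx4a all 3 intervals are apart, while for gpx4b the control and Fe'i intervals overlap. The gpx4a locus overlaps that of polr2eb, and the labels do not say whether the counting used strand. Without gpx1b the peroxidases still summed to 1.51-fold the control in the Cavendish library, and to 1.25-fold with TPM.

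The remaining peroxidases were scarce. gpx8, an enzyme of the endoplasmic reticulum, was at 0.355 ± 0.206, 0.867 ± 0.300 and 2.03 ± 0.573 FPKM and called higher in the Fe'i library (log2 ratio 1.16), a call lost with a pseudocount of 5 (0.39). With a pseudocount of 0.1 it was also called higher with Fe'i than with Cavendish (1.14, from 0.70). gpx3, the secreted form, was at 1.13 ± 0.215, 1.69 ± 0.248 and 2.42 ± 0.371, in ascending order from control to Cavendish to Fe'i. gpx7 was at 0.214 ± 0.247, 1.05 ± 0.511 and 0.192 ± 0.273. gpx2, known as the gastrointestinal form in mammals, was listed at 0 in the control and Cavendish libraries and stood at 0.0956 ± 0.191 in the Fe'i library.

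No peroxiredoxin was called in any comparison. prdx2, the most abundant of them, was at 586 ± 12.8 FPKM on control feed, 605 ± 12.0 with Cavendish and 700.3 ± 16.1 with Fe'i. prdx6, which acts through glutathione, was at 359 ± 16.5, 311 ± 14.7 and 334 ± 16.3. prdx1 was at 83.7 ± 5.26, 93.1 ± 5.38 and 47.6 ± 4.50. The Fe'i library thus held the highest prdx2 and the lowest prdx1 level, and prdx1 came close to the threshold (log2 ratio -0.80 to the control and -0.96 to the Cavendish library). prdx5 was at 26.9 ± 3.23, 42.4 ± 3.95 and 24.96 ± 3.55, highest in the Cavendish library. The mitochondrial prdx3 was at 71.0 ± 4.77, 59.6 ± 4.05 and 59.23 ± 4.69, and prdx4, of the secretory pathway, at 61.6 ± 4.03, 73.3 ± 4.09 and 70.2 ± 4.997; neither ranged beyond 1.5-fold.

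In the thioredoxin system, the cytosolic and the mitochondrial carrier did not run in parallel. txn, the cytosolic thioredoxin, was at 274 ± 16.3 FPKM on control feed, 394 ± 20.9 with Cavendish and 222 ± 15.3 with Fe'i. txn2, the mitochondrial one, was at 38.7 ± 2.84, 26.6 ± 2.21 and 28.4 ± 2.82. txn was highest in the Cavendish and lowest in the Fe'i library, with all intervals apart, while txn2 was highest in the control. txnrd3, the abundant thioredoxin reductase gene here, was at 86.9 ± 4.37, 97.6 ± 4.72 and 97.4 ± 5.06. srxn1, which repairs overoxidised peroxiredoxins, was at 3.62 ± 1.76, 2.28 ± 1.32 and 2.88 ± 1.86, on 17.0 effective fragments or fewer, with overlapping intervals.

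With the scaling used here, the abundant enzymes that remove superoxide were level across the diets. sod1, the cytosolic superoxide dismutase, was at 404 ± 21.0 FPKM on control feed, 377 ± 19.3 with Cavendish and 370.1 ± 20.8 with Fe'i, and the mitochondrial sod2 at 98.1 ± 6.74, 100.2 ± 6.53 and 96.1 ± 7.36. The intervals of each overlap among all libraries. Among the alternative settings the log2 ratio of Cavendish to control reached -0.37 for sod1 and -0.24 for sod2. The secreted sod3a was at 1.58 ± 0.609, 3.60 ± 0.868 and 5.28 ± 1.32 and was called higher in the Fe'i library (log2 ratio 1.28, and 0.64 with a pseudocount of 5, not called). With a pseudocount of 0.1 it was also called higher in the Cavendish library (1.14, from 0.83). cat, the peroxisomal catalase that splits hydrogen peroxide, was at 166 ± 7.78, 175 ± 7.86 and 246 ± 11.2, with the Fe'i library above both others and below 2-fold (log2 ratio to the control 0.57, counting SE 0.05).

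The regulators and nqo1 stayed under 2-fold, with opposite differences within the KEAP1 pair. nfe2l2a, which encodes NRF2, was at 22.7 ± 1.01 FPKM on control feed, 29.7 ± 1.07 with Cavendish and 29.1 ± 1.33 with Fe'i, and nfe2l2b, its scarce paralog, at 1.35 ± 0.319, 2.61 ± 0.408 and 1.44 ± 0.385. keap1a was at 18.2 ± 1.201, 10.1 ± 0.834 and 13.3 ± 1.19, and keap1b at 5.003 ± 0.646, 7.35 ± 0.766 and 5.86 ± 0.824. nfe2l2a stood above and keap1a below the control on both banana diets, with intervals apart, and keap1b was higher in the Cavendish library. The share of keap1b in the pair was 21.6%, 42.0% and 30.7%. The log2 ratio of keap1a for Cavendish over control was -0.79, and -1.04 with TPM, which passes the threshold. nqo1, a quinone reductase used widely as a readout of NRF2, was at 51.2 ± 3.58, 40.2 ± 2.91 and 55.1 ± 4.22, lowest in the Cavendish library.

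**Figure D4:**
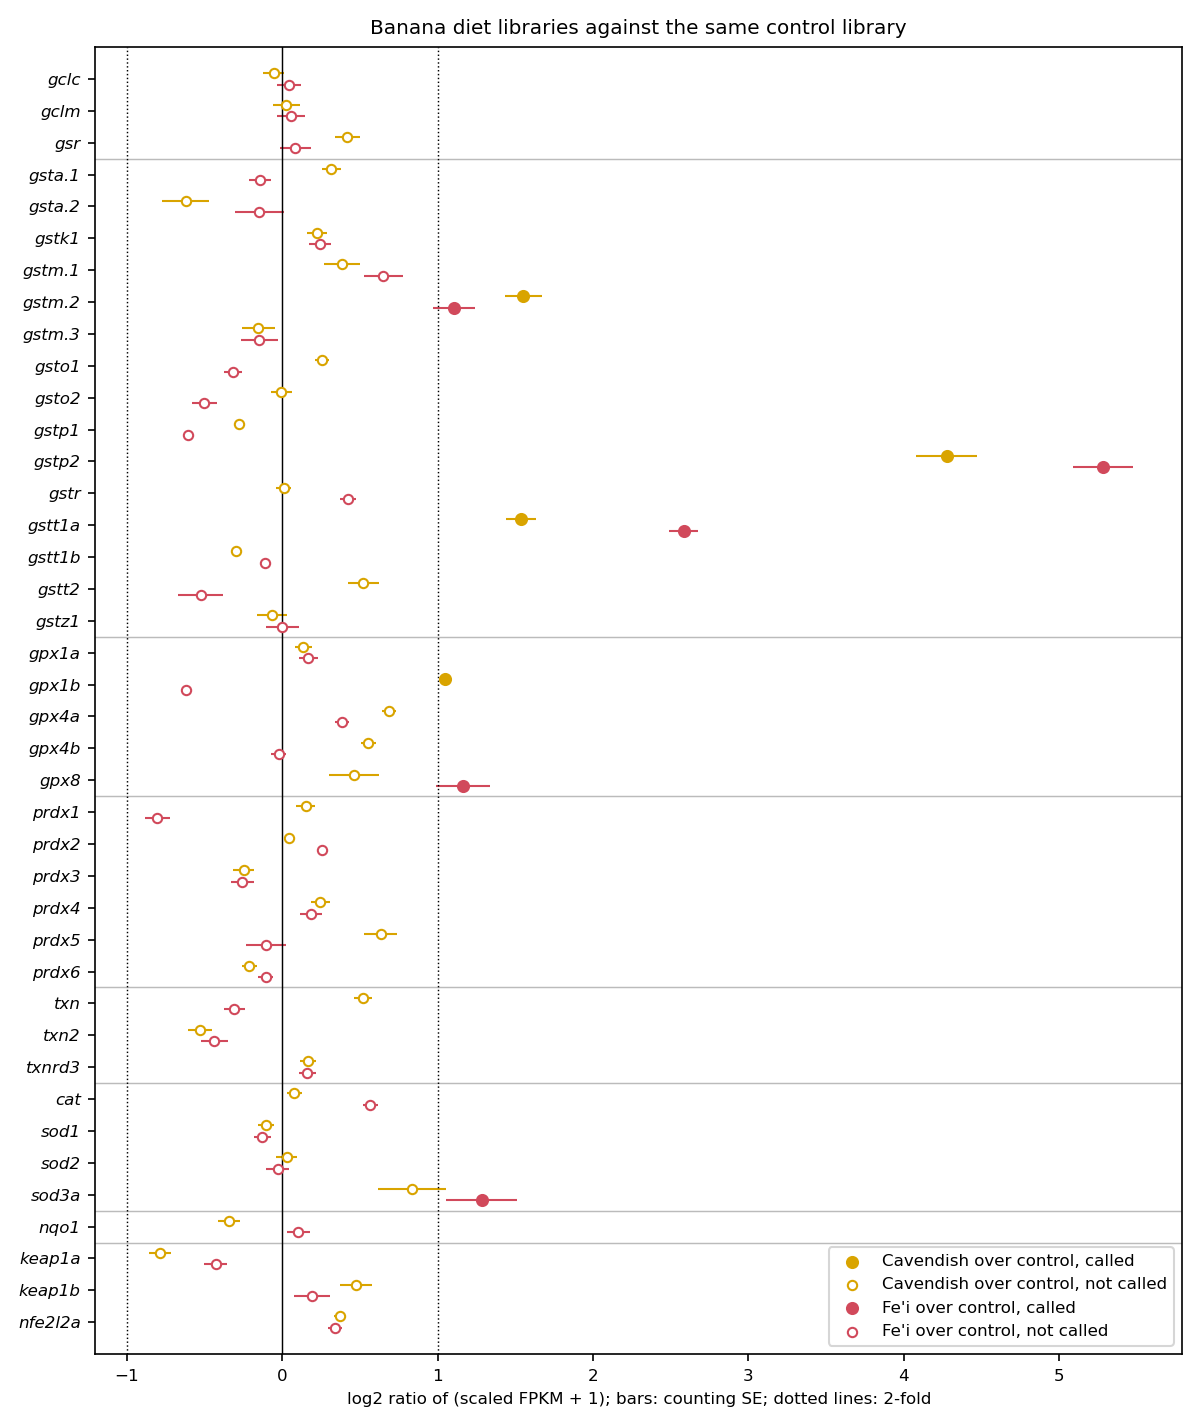
Log2 ratio of (scaled FPKM + 1) to the control library for the same 40 members, Cavendish and Fe'i; bars are counting SEs and dotted lines mark 2-fold. Filled points (called) all lie to the right, led by gstp2 at 4.28 and 5.28, and gpx1b lies on opposite sides of 0 at 1.05 and -0.62.

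Measured members lay close to all genes by median log2 ratio and by range over the libraries. By intervals alone, with the scaling used here, they did not. Their median log2 ratio was 0.16 for Cavendish over control, 0.02 for Fe'i over control and 0.00 for Fe'i over Cavendish, against 0.02, 0.02 and -0.01 over all 14067 measured genes. The first median turned to -0.12 with TPM, where that of all genes was -0.19. The second turned to -0.08 with the deposited FPKM, where that of all genes was -0.09. The median size of a ratio, whatever its sign, was 0.33, 0.25 and 0.34 for members and 0.27, 0.25 and 0.28 for all genes. Of the 46 members, 39 ranged less than 2-fold over the 3 libraries, or 84.8%, and 83.4% of all genes did so. At a 1.5-fold threshold 9 members were higher and 2 lower with Cavendish than in the control. These were 19.6% and 4.35% of members, against 12.2% and 5.3% of all genes. With Fe'i 7 were higher and 3 lower than in the control (15.2% and 6.52%, against 9.48% and 5.1%). Between the banana diets 3 were higher and 6 lower with Fe'i (6.52% and 13%, against 8.96% and 10%). By intervals alone, at any fold, 22 members lay above and 8 below the control in the Cavendish library. These were 47.8% and 17.4% of members, against 20.6% and 16.8% of all genes. With TPM, gstk1, gsto1, prdx4 and txnrd3 of these 22 lay below the control, where the median of all genes was -0.19. The counts by intervals alone were taken with the scaling used here only. In the Fe'i library 14 lay above and 11 below the control (30.4% and 23.9%, against 16.2% and 14.3%). Between the banana diets 10 were higher and 15 lower with Fe'i (21.7% and 32.6%, against 17.5% and 18.2%). The effective fragments of members and of all genes, which are computed from the same intervals, differ as given above, and their part in these shares was not tested.

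**Figure D5:**
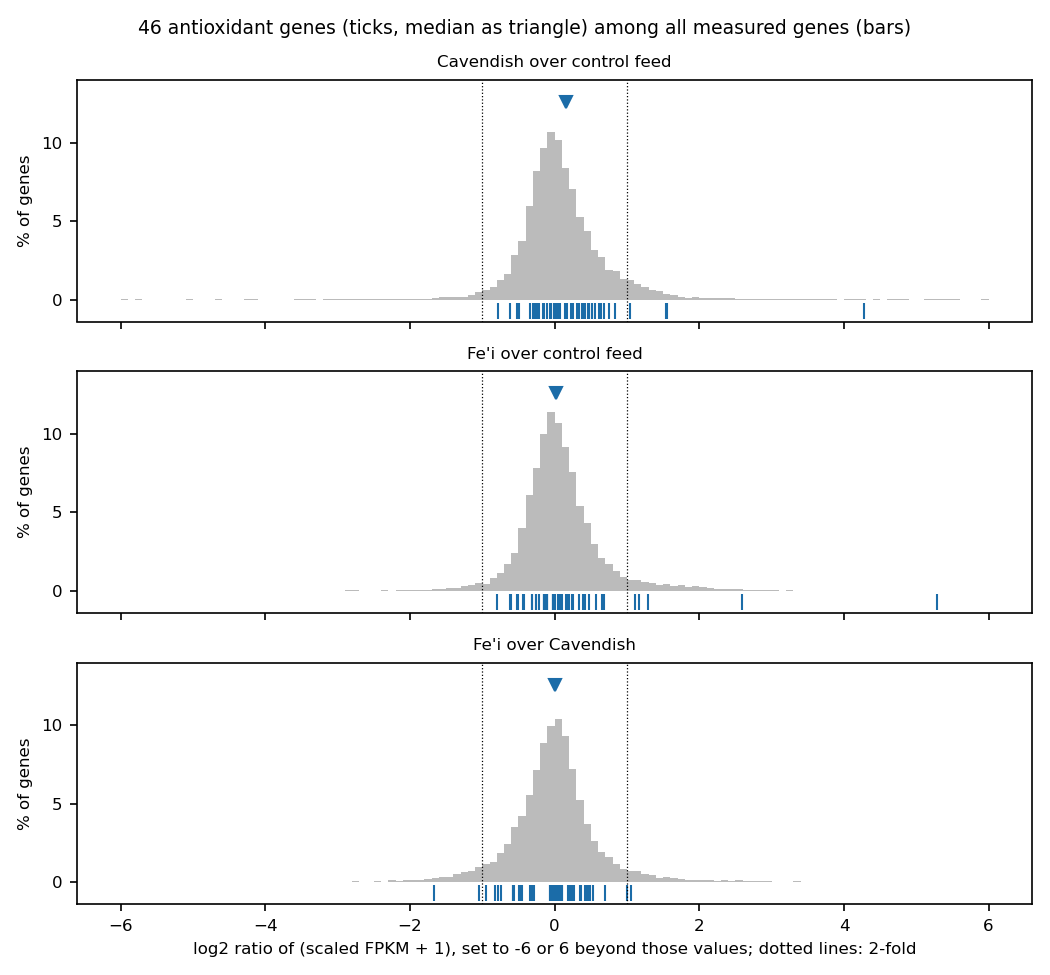
Distribution of log2 ratios over all 14067 measured genes (gray bars, percent of genes per bin) with the 46 measured members as ticks and their median as a triangle, for the 3 comparisons; dotted lines mark 2-fold. The triangles stand at 0.16, 0.02 and 0.00, near the peak of all genes, and gstp2 stands apart in both comparisons with the control.

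A wider list held other genes linked to NRF2 and to glutathione and thiol metabolism. It includes the microsomal glutathione transferases (mgst), of which mgst3a was the most abundant. mgst3a was at 1121 ± 38.9 FPKM on control feed, 1090 ± 36.9 with Cavendish and 859 ± 35.0 with Fe'i, and was not called. Of the 75 measured genes of the list, 3 were called higher and 3 lower with Cavendish against the control. Of all genes 5.68% and 1.65% were. With Fe'i 3 were higher and 1 lower, against 4.93% and 1.79%. The median log2 ratios of the list were -0.00 and -0.11. Between the banana diets 4 were higher and 4 lower with Fe'i, at a median of -0.05, against 4.22% and 4.5% of all genes. hmox1a, heme oxygenase, was at 5.53 ± 1.03 FPKM on control feed, 9.18 ± 1.25 with Cavendish and 66.8 ± 4.87 with Fe'i, which stands far above both others. msra, which repairs oxidised methionine in proteins, was at 32.4 ± 3.53, 8.17 ± 1.57 and 40.9 ± 4.58, low in the Cavendish library alone. msrb3, another methionine sulfoxide reductase, was at 7.79 ± 1.76, 22.8 ± 5.91 and 6.52 ± 2.25, high in that library alone.

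Genes that feed these systems with NADPH, methionine or cysteine differed in both directions. me1, malic enzyme, which supplies NADPH, was at 50.1 ± 3.22 FPKM on control feed, 8.47 ± 1.02 with Cavendish and 10.9 ± 1.43 with Fe'i, low on both banana diets. mat1a, which makes S-adenosylmethionine and is typical of liver, was at 34.3 ± 1.75, 58.0 ± 2.12 and 129 ± 3.96, and cbsb, of the route from homocysteine to cysteine, at 10.2 ± 1.06, 10.2 ± 0.988 and 21.6 ± 1.85. Both were highest in the Fe'i library. txnipa, an inhibitor of thioredoxin, was at 64.1 ± 2.28, 106 ± 2.75 and 52.0 ± 2.39, in the same order of libraries as txn. slc3a2b, a subunit of amino acid exchangers, was at 3.87 ± 0.636, 5.75 ± 0.732 and 2.29 ± 0.579. ugdh, which makes the sugar donor for glucuronidation, was at 127 ± 5.86, 62.7 ± 3.39 and 78.5 ± 4.56, highest in the control.

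4 more genes of the list had the ratios of greatest size among the rest. ggt1a, a gamma-glutamyl transferase that breaks down glutathione outside cells, was at 0.529 ± 0.256, 4.08 ± 0.656 and 0.150 ± 0.182 FPKM in the 3 libraries, and its relative ggt5a at 0.291 ± 0.127, 2.03 ± 0.388 and 0.760 ± 0.259. Both were highest in the Cavendish library. cbr1l, a carbonyl reductase, was at 163 ± 4.96, 119 ± 3.94 and 87.5 ± 4.21, and abcc3, an exporter of conjugates, at 1.102 ± 0.387, 2.29 ± 0.419 and 0.770 ± 0.473.

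Marker genes of enterocytes and of other tissues also differed between the libraries. Of the 46 measured members 16 were highest in the Fe'i and 18 in the Cavendish library (4649 and 5093 of all 14067 genes). With Fe'i 25 of 25 liver markers were called higher than in the control (median log2 ratio 1.83), and with Cavendish 9 of 25 (median 0.84). Of all genes 4.93% and 5.68% were called higher, and 1.79% and 1.65% lower. Of 16 enterocyte markers 4 were called lower with Fe'i (median -0.43) and 3 with Cavendish (median -0.54), and 0 higher. In the Cavendish library 17 of 22 exocrine pancreas markers were called higher than in the control (median 1.54). So were 10 of 16 measured smooth muscle and fibroblast markers (median 1.34). In the Fe'i library 0 of the 16 smooth muscle and fibroblast markers were called higher. Of the 22 genes listed as pancreas markers 1 was, cpb2 (11.6, 19.9 and 31.0 FPKM in the 3 libraries). It was also the only 1 of the 22 that was higher with Fe'i than with Cavendish. Its log2 ratios to the control were 0.73 with Cavendish and 1.35 with Fe'i. They lay nearer the liver medians than those of the pancreas list (1.54 and -0.07), so cpb2 may not mark pancreas here. Of 9 measured erythrocyte genes, 7 were called higher with Cavendish and 6 with Fe'i, and 3 of the 15 found were at 0 in each library. Markers of lysosome-rich enterocytes, found in the posterior intestine, had a median of -0.25 with Cavendish and 1.26 with Fe'i. With Fe'i 11 of 15 were called higher (summed level 14005 FPKM in the control, 10367 and 29719). Of the genes listed as these markers pdia2 alone lay below the control with Fe'i (52.6, 104 and 43.9 FPKM in the 3 libraries). It was called lower with Fe'i than with Cavendish. Its log2 ratios to the control were 0.97 with Cavendish and -0.26 with Fe'i. They lay nearer the medians of the pancreas list (1.54 and -0.07) than those of its own list, so pdia2 may not mark these cells here. Egg markers had 0 of 11 called in the Cavendish and 10 of 11 called higher with Fe'i. All 16 found summed to 8.54, 5.64 and 71.4 FPKM. Of 15 neutrophil and macrophage markers 3 were higher and 1 lower, by the same rule, with Cavendish and 1 higher with Fe'i. Their median log2 ratios were 0.13 and -0.23. All 19 found summed to 633, 372 and 453 FPKM, of which the highest single gene in each library held 324, 69.6 and 179. Of 6 goblet cell markers 0 were called in either, and all 8 found summed to 364, 429 and 213 FPKM. The part of these tissues in the members' differences was not tested.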

How the data were processed

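The deposited values are FPKM per gene from Cufflinks with a lower and an upper 95% bound and a status, per the file headers. The submitters' processing notes name TopHat2 2.1.0, FastQC 0.11.5 and the build GRCz11. The Cufflinks version: not given in the sources used here. Each file holds 32661 rows. Rows of the 117 identifiers with several rows were summed, and 9 identifiers with a status other than OK, none of them a member, were left out. No columns of other samples occur. Locus starts, which Cufflinks counts from 0, were raised by 1. Each library was divided by its median-ratio factor (control 1.06, Cavendish 0.969, Fe'i 0.965), taken from genes that every library held at 1 FPKM or more. Ratios use log2(scaled FPKM + 1), which understates changes of low genes. Read totals are unknown. Intervals, and the counting SEs taken from them, cover counting and read assignment within a library only. Groups come from the treatment labels.

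The text names members at 5 FPKM or more or called. Of the wider list it names the called genes at 5 FPKM or more and 4 further genes with the largest ratios. After their values were seen, gss, gstcd, gpx2, gpx3, gpx7, srxn1 and nfe2l2b were added to complete their classes. So was mgst3a of the wider list. Members and lists were chosen with earlier results of these data known. Of the 53 loci, 14 overlap another gene, among them gsta.1, gstt2, gpx1a, gpx4a, cat, sod1 and sod2. The call rule was tested on simulated data. Python 3.11.15, pandas 2.3.3 and numpy 2.4.6 were used. Alternatives were other pseudocounts, scalings, minimum FPKM and fold thresholds. No sequences are printed.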

Additional observations from a re-analysis of the deposited data

Results flagged for a closer look

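For gpx1b and gstt2 the banana libraries lay on opposite sides of the control library, with intervals apart, and at least 2-fold from each other. The log2 ratio of the Fe'i to the Cavendish library was -1.67 for gpx1b and -1.04 for gstt2. For gstt2, whose locus overlaps chek2, the ratio fell short of 2-fold with TPM (-0.93) and with a pseudocount of 5 (-0.70). txn and gsto1 also lay on opposite sides of the control with intervals apart, but less than 2-fold from each other (-0.83 and -0.58), and gsto1 was not above the control in the Cavendish library with TPM (log2 ratio -0.0064). With 1 library per diet the difference was not tested for any of these genes, and both diets were set against the same control library.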

How the results depend on the processing

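Each alternative changed 1 choice. Members called higher against the control kept within 1.5 times of the 4 (Cavendish) and 5 (Fe'i) reported, except 2 for Fe'i with a pseudocount of 5 and 9 for Cavendish at a 1.5-fold threshold. Members called lower were 1 for Cavendish with TPM, and 2 for Cavendish and 3 for Fe'i at 1.5-fold. Between the banana diets, where 2 were higher and 2 lower, a pseudocount of 5 gave 1 and 1, the deposited FPKM 1 higher, TPM 1 lower and the 1.5-fold threshold 6 lower. A pseudocount of 0.1 gave 6 members called higher than the control on each banana diet. It gave 3 higher and 3 lower between the banana diets. These added calls include scarce members other than gpx8 and sod3a. The median log2 ratio for Cavendish over control, 0.16, became 0.023 with the deposited FPKM, -0.12 with TPM, 0.0196 with TPM without exocrine pancreas and mitochondrially encoded genes and 0.046 without a minimum FPKM. For Fe'i over control, 0.02 became -0.084 (deposited FPKM), -0.12 (TPM) and -0.047 (TPM without those genes). For Fe'i over Cavendish, 0.00 became -0.00016 (deposited FPKM), 0.13 (TPM), 0.075 (TPM without those genes) and -0.0017 (minimum of 5 FPKM). The scalings multiply each library by 1 constant, and the medians of all genes moved too. For Cavendish over control that median, 0.02, became -0.08 (deposited FPKM), -0.19 (TPM) and -0.08 (TPM without those genes). For Fe'i over control 0.02 became -0.09, -0.10 and -0.03, in the same order. For Fe'i over Cavendish -0.01 became -0.02, 0.09 and 0.04. The other recomputed counts and medians are not listed singly. The cause of the remaining changes was not tested. No paired analysis was possible because each diet has 1 library. Low FPKM limit gstp2 in the control, gpx8 and sod3a.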

Other observations

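Genes beside gstp1, gpx1b and the mu-class row were also measured. fnta, which lies on the far side of gstp1 from gstp2 on chromosome 14, was at 23.9 ± 2.89 scaled FPKM on control feed, 18.8 ± 2.45 with Cavendish and 16.6 ± 3.04 with Fe'i. Next to gpx1b on chromosome 6, usp4 was at 15.2 ± 0.824, 15.3 ± 0.763 and 14.7 ± 0.942, and fancd2 at 2.28 ± 0.338, 3.14 ± 0.376 and 1.68 ± 0.332. eps8l3b, which follows the mu-class row on chromosome 8, was at 118 ± 5.71, 94.1 ± 4.63 and 125 ± 6.44. Beside gstt1a on chromosome 8, p2rx7 was at 0.157 ± 0.140, 0.162 ± 0.132 and 0.380 ± 0.253, and mmp11a was at 0.0745 ± 0.106 and 0.0643 ± 0.0911 in the first 2 libraries and listed at 0 in the Fe'i library. None of the genes named here was called in any comparison.

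7 members stayed under 1 FPKM in all libraries: gpx2, gstk2, both identifiers named gstk4, sod3b, txnrd2.1 and txnrd2.2. sod3b and 1 of the gstk4 identifiers were listed at 0 in all 3. The loci of txnrd2.1 and txnrd2.2, and those of the gstk4 identifiers, overlap, and the labels do not say how reads were divided between them.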
